A study of Homo sapiens with 12 samples.

Results

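The ribosomal DNA repeat carried by the hg19 contig chrUn_gl000220 was examined, in protein interaction profile sequencing data, for protein-protected sites on the 45S pre-rRNA, the precursor of 18S, 5.8S and 28S rRNA. All sites of the 6 replicate lists on this contig were taken, at any position and on either strand, with no use of their scores. They numbered 924 of 513381 listed sites. The 3 lists made with the single-strand nuclease held 213, 198 and 198 of them, out of 209922, 57481 and 172079 sites in all. The 3 lists made with the double-strand nuclease held 94, 101 and 120, out of 23925, 28413 and 21561. The contig carries 2 copies of the 45S unit on its plus strand, the first from 105424 and the second 43972 bases further on. Unless stated otherwise, positions and values are those of the first copy.

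All material came from HEK293T, an established human embryonic kidney cell line, which carries the large T antigen of a simian virus. The cells were fixed with 1% formaldehyde for 10 minutes. For all 12 libraries the labels also give 125 mM glycine and crosslink reversal at 65 °C for 2 hours. They give no other treatment of the cells. The ssRNase of the labels, RNase ONE, digests RNA that is not paired. Their dsRNase, RNase V1, digests base-paired or stacked RNA. In the footprint libraries protein was present during digestion, and in the digestion controls SDS and proteinase K had stripped it off beforehand. The 12 libraries form 4 groups of 3, namely a footprint and a control group for each nuclease. A deposited site is a stretch where a footprint library stood above its matching control, so the 12 libraries enter through 6 lists. A base without a site may be unprotected, may resist the nuclease in the control too, or may have too few reads, and these cases cannot be told apart in the lists. The labels do not say whether replicates are separate cultures, and their spread may be technical. The lists hold positions and a score per site but no read counts. The depth behind a site is therefore unknown, and the labelled cell line was not checked against marker genes. Library normalisation with duplex-specific nuclease, which removes abundant sequences, was part of the protocol in the labels, and its effect on rRNA was not tested.

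RNA polymerase I transcribes the 45S precursor in the nucleolus. The precursor holds an external transcribed spacer at each end (5'ETS and 3'ETS) and 2 internal ones (ITS1 between 18S and 5.8S, ITS2 between 5.8S and 28S). The spacers are bound by ribosome assembly factors and small nucleolar ribonucleoproteins, are cut out by endonucleases and trimmed by exonucleases, and are not part of the ribosome. The mature rRNAs fold into the small subunit (18S) and the large subunit (5.8S and 28S), where they are covered by ribosomal proteins.

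The mature 5.8S rRNA, which pairs with 28S rRNA in the large subunit, is short enough to be shown whole and carried the widest contrast between nucleases among the mature RNAs. Its letters below come from GENCODE (GRCh38, chr21:8212572-8212724, plus strand, 153 bases, identical in 4 annotated transcripts) and were aligned with the contig by position within the gene, not read from hg19. The last 3 of the 156 positions counted as 5.8S on the contig are not in that annotation. Capitals mark the bases inside a site in all 3 lists of the nuclease named, written 5′ to 3′ as DNA.
5.8S, ssRNase: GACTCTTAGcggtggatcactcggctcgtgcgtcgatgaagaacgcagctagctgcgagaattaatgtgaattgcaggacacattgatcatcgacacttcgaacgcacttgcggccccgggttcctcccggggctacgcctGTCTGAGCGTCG
5.8S, dsRNase: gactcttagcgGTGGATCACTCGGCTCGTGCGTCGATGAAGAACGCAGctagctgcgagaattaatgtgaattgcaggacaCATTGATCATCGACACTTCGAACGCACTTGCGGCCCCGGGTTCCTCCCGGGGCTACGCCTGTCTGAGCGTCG
The ssRNase lists shared only the ends of the molecule, positions 1 to 9 and 142 to 156. The dsRNase lists shared 2 internal blocks, positions 12 to 48 and 82 to 156, the second of which runs to the 3′ end. Positions 142 to 156 were the only stretch inside sites of all 6 lists.

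Several edges of the annotation coincided with edges of sites. In all 3 ssRNase lists a site began on base 105424 exactly, the first base of the 45S unit. Upstream of that base the nearest ssRNase site ended 356, 9650 and 8007 bases earlier. A site of each ssRNase list ended on 113347, the last base of ITS2, and one began on 118417, the last base of 28S. Starts were read as 1-based, which was not checked. Counted from 0, each start would lie 1 base further on. In the plot of sites along the precursor, ssRNase sites filled most of the spacers, and dsRNase sites were found mainly in 18S, 5.8S and 28S.

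**Figure D1:**
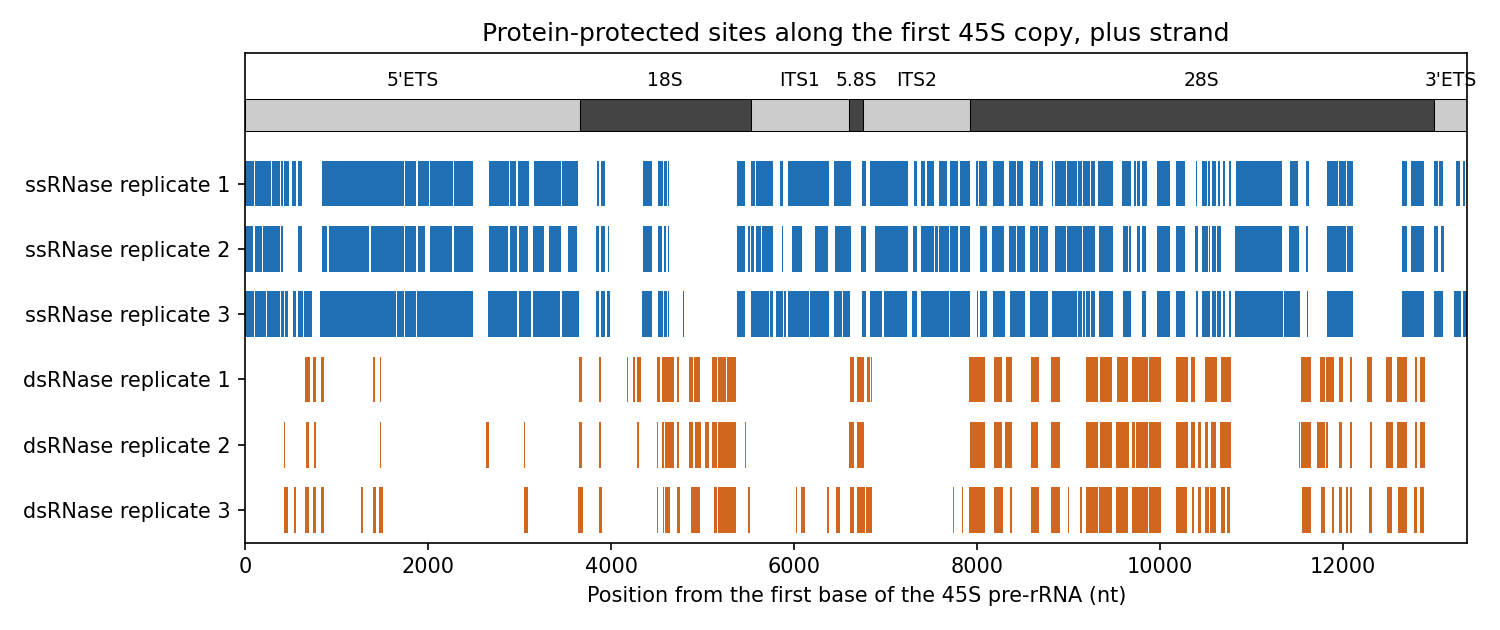
Protein-protected sites of each of the 6 replicate lists (rows; ssRNase blue, dsRNase orange) along the first 45S copy, in nt from its first base; the bar above marks spacers (light) and mature rRNAs (dark). The ssRNase lists cover 67.4% to 84.4% of spacer bases and the dsRNase lists 2.32% to 9.21%.

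Spacers were covered mainly in the ssRNase lists. Of the 6262 spacer bases, 77.3%, 67.4% and 84.4% lay in a site of the 3 ssRNase lists, against 3.48%, 2.32% and 9.21% in the dsRNase lists. The groups did not overlap, and the means were 76.4% ± 8.55 (SD, n = 3) and 5.00% ± 3.69 (SD, n = 3), a difference of 71.4 percentage points. With 3 lists against 3, the two-sided exact permutation test cannot go below p = 0.1, which was the value here. The same smallest value, 0.1 before and after Benjamini-Hochberg adjustment over the 7 elements, was obtained for each of the 7 elements, in none of which the nucleases overlapped. None of these differences could therefore pass 0.05.

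**Figure D2:**
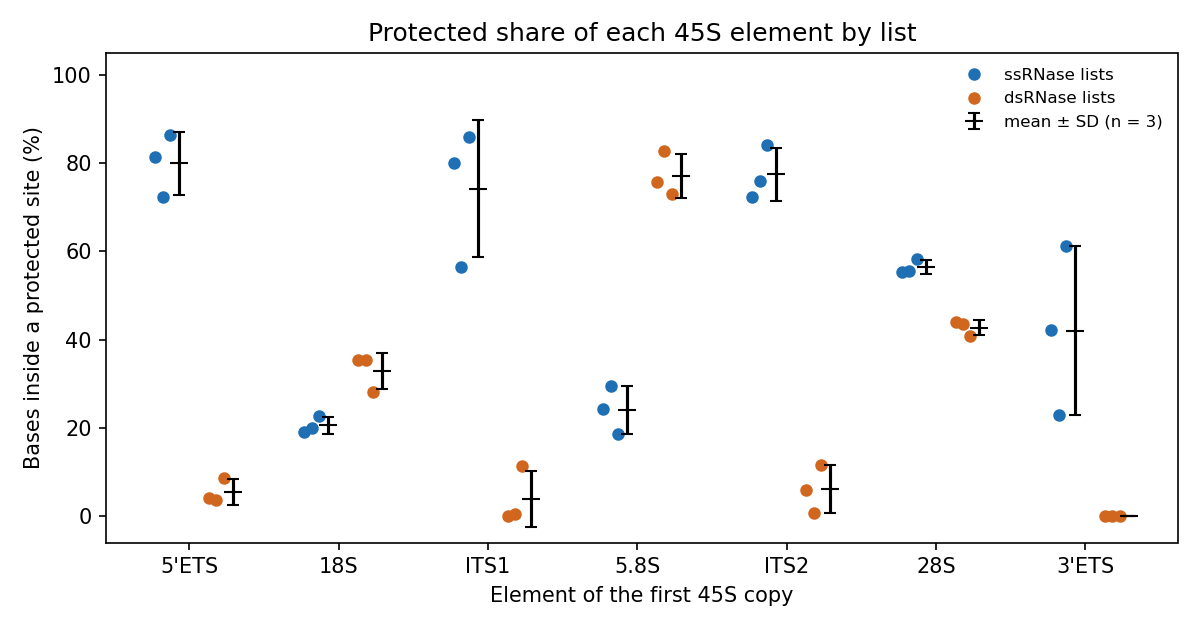
Percent of the bases of each element inside a site, 1 point per list (ssRNase blue, dsRNase orange), with the mean ± SD of 3 lists beside the points. The ssRNase points lie higher in the 4 spacers and in 28S, and the dsRNase points lie higher in 18S and 5.8S.

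The 5'ETS, the longest spacer with 3654 bases (105424 to 109077), is where early processing factors such as the U3 small nucleolar ribonucleoprotein assemble. It was covered to 81.5%, 72.2% and 86.3% in the ssRNase lists and to 4.08%, 3.59% and 8.73% in the dsRNase lists. All 3 ssRNase lists were far above all 3 dsRNase lists, with means of 80.0% ± 7.16 and 5.46% ± 2.84 (SD, n = 3 each). Sites were both more numerous and longer with ssRNase. The ssRNase lists had 22 to 23 sites with median lengths of 95.0 to 104.0 nt, and the dsRNase lists had 5 to 9 sites with median lengths of 18.0 to 31.0 nt. The longest contig site of every ssRNase list was in the 5'ETS. It spanned 678 nt (106478 to 107155) in replicate 1, 361 nt (106796 to 107156) in replicate 2 and 534 nt (106538 to 107071) in replicate 3, and these 3 stretches overlapped. Of the 5'ETS bases, 2414 (66.1%) were covered in all 3 ssRNase lists and in no dsRNase list. The longest such run was 211 nt, 107703 to 107913, positions 2280 to 2490 of the spacer. It ended 1 base short of the longest run without a site in any list, 139 nt from 107915 to 108053. Only 12 bases, 106897 to 106908, were covered in all 6 lists. These were 16.2% of the 74 bases common to the dsRNase lists, where the ssRNase lists had 70.3% of all 5'ETS bases in common. They were 0.467% of the 2568 bases common to the ssRNase lists, where the dsRNase lists had 2.03% in common. A run of 22 bases, 106170 to 106191, was covered in all 3 dsRNase lists and in no ssRNase list. When the 5'ETS was divided into 6 equal parts of 609 bases, ssRNase coverage was between 67.7% ± 2.00 (part 5) and 96.6% ± 2.07 (part 3, positions 1219 to 1827). The dsRNase coverage was highest, at 14.1% ± 4.65, in part 2 and was 0 in all 3 lists in part 4.

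ITS1, which separates the small-subunit from the large-subunit rRNAs and is cut to part their precursors, has 1078 bases (110947 to 112024). It was covered to 80.0%, 56.6% and 86.0% in the ssRNase lists and to 0, 0.557% and 11.3% in the dsRNase lists. The ssRNase replicate 2 list, the shortest of that nuclease, was the lowest of its group but still above every dsRNase list. The means were 74.2% ± 15.5 and 3.96% ± 6.38 (SD, n = 3 each). No ITS1 base was covered in all 3 dsRNase lists, and only replicate 3 had sites with their midpoint there, 4 in number. The longest stretch covered by all ssRNase and no dsRNase lists was 76 nt, 111074 to 111149. The longest stretch in no list was 47 nt, 111809 to 111855.

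ITS2, whose removal is among the late steps of large-subunit maturation, has 1167 bases (112181 to 113347). Its coverage was 72.4%, 76.0% and 84.1% with ssRNase and 5.91%, 0.686% and 11.7% with dsRNase. The means were 77.5% ± 6.01 and 6.08% ± 5.49 (SD, n = 3 each), again without overlap. Its longest ssRNase-only run was 196 nt (112402 to 112597, positions 222 to 417), and the longest ITS2 sites of these lists had 250 to 269 nt. The 8 ITS2 bases covered in all 3 dsRNase lists were also covered in all ssRNase lists, which had 65.4% of all ITS2 bases in common. The dsRNase replicate 2 list had no site with its midpoint in ITS2. The longest stretch in no list was 47 nt, 112668 to 112714.

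The 3'ETS, the short tail that is trimmed from the 3′ end of 28S, has 363 bases here (118418 to 118780). It was covered to 42.1%, 22.9% and 61.2% in the ssRNase lists and was not covered in any dsRNase list. The ssRNase mean of 42.1% ± 19.1 (SD, n = 3) was the lowest of the 4 spacers, and its relative spread the widest. Its first 45 bases, 118418 to 118462, were covered in all 3 ssRNase lists. A stretch of 113 bases, 118530 to 118642, was in no list.

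In the mature rRNAs both nucleases left sites, and the 3 RNAs differed in which nuclease covered more. Of 7095 mature bases, 45.2%, 45.6% and 48.0% lay in a site of the ssRNase lists and 42.4%, 42.2% and 38.2% in the dsRNase lists. The groups did not overlap, but the means, 46.3% ± 1.53 and 40.9% ± 2.35 (SD, n = 3 each), were 5.33 percentage points apart, against 71.4 in the spacers. Site numbers were also near each other, at 49 to 56 with ssRNase and 41 to 45 with dsRNase.

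The 18S rRNA, the RNA of the small subunit, has 1869 bases (109078 to 110946). On average, though not in replicate 3, it was the least covered element with ssRNase. Its coverage was 19.1%, 19.96% and 22.6% in the ssRNase lists and 35.3%, 35.3% and 28.2% in the dsRNase lists. Every dsRNase list was above every ssRNase list, with means of 32.9% ± 4.11 and 20.6% ± 1.84 (SD, n = 3 each). The nucleases covered largely different bases. Those covered in all 6 lists numbered 26, which was 7.78% of the 334 bases common to the ssRNase lists and 5.90% of the 441 common to the dsRNase lists. Over all 18S bases these shares were 23.6% for the bases common to the dsRNase lists and 17.9% for those common to the ssRNase lists, both higher than the overlap. A further 728 bases (39.0%) were in no list, the largest such share of any element, with the longest gap of 182 nt at 109414 to 109595 (positions 337 to 518). The longest stretches of 1 nuclease lay next to each other near the 3′ end. Positions 1613 to 1709 (110690 to 110786, 97 nt) were covered in all dsRNase and no ssRNase lists, and positions 1727 to 1809 (110804 to 110886, 83 nt) in all ssRNase and no dsRNase lists. The latter stretch lay in the best-scoring contig site of all 3 ssRNase lists, at 110803 to 110886 in replicates 1 and 2 and 110804 to 110888 in replicate 3. The score is the authors' own value per site and serves here for ranks inside its own list. By that rank the site stood first in its list in replicates 2 and 3 and second in replicate 1. The longest site of dsRNase replicates 2 and 3 covered the other stretch, with 203 nt (110588 to 110790) and 196 nt (110595 to 110790). In the last of 3 equal parts of 18S (positions 1247 to 1869), dsRNase coverage was 52.9% ± 6.65 and ssRNase coverage 14.6% ± 1.72. In the first part (positions 1 to 623) the values were 11.02% ± 2.28 and 14.9% ± 3.07, and the lists of the nucleases overlapped.

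The 5.8S rRNA, whose letters are printed with the opening, has 156 bases (112025 to 112180) and was the most completely covered element with dsRNase. Its coverage was 75.6%, 82.7% and 73.1% in the dsRNase lists and 24.4%, 29.5% and 18.6% in the ssRNase lists. The dsRNase lists were all above the ssRNase lists by a wide margin, with means of 77.1% ± 4.98 and 24.1% ± 5.45 (SD, n = 3 each). Each dsRNase list had 2 sites with their midpoint in 5.8S, the longest of 82 to 95 nt. Of the ssRNase lists only replicate 3 had one, of 14 nt, and the remaining ssRNase coverage came from sites that reached in from ITS1 and ITS2. Positions 55 to 81, in lower case between the 2 dsRNase blocks, were in no list. The longest run covered by all dsRNase and no ssRNase lists was positions 82 to 130 (112106 to 112154, 49 nt).

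The 28S rRNA, the large-subunit RNA that holds the peptidyl transferase centre, has 5070 bases (113348 to 118417). Its coverage was 55.4%, 55.5% and 58.3% in the ssRNase lists and 43.9%, 43.5% and 40.8% in the dsRNase lists. In contrast to 18S and 5.8S the ssRNase lists were higher, with means of 56.4% ± 1.61 and 42.7% ± 1.68 (SD, n = 3 each). All 6 lists covered 994 of its bases. These were 39.0% of the 2547 bases common to the ssRNase lists, where the dsRNase lists had 37.2% of all 28S bases in common. They were 52.7% of the 1886 bases common to the dsRNase lists, where the ssRNase lists had 50.2% of all 28S bases in common. The overlap in 28S was thus near the share that each nuclease covered over the whole RNA. The longest run in all 6 lists was 91 nt, 115603 to 115693 (positions 2256 to 2346). The longest ssRNase-only run was 197 nt, 116251 to 116447 (positions 2904 to 3100), and the longest dsRNase-only run 91 nt, 115301 to 115391 (positions 1954 to 2044). A stretch of 157 nt, 117534 to 117690 (positions 4187 to 4343), was in no list. The best-scoring site of each dsRNase list was in 28S, at 115163 to 115290, 115161 to 115297 and 115163 to 115289 in replicates 1 to 3, and it stood first in its whole list each time. The longest site of dsRNase replicate 1 on the contig, 180 nt from 113335 to 113514, was at the start of 28S.

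**Figure D3:**
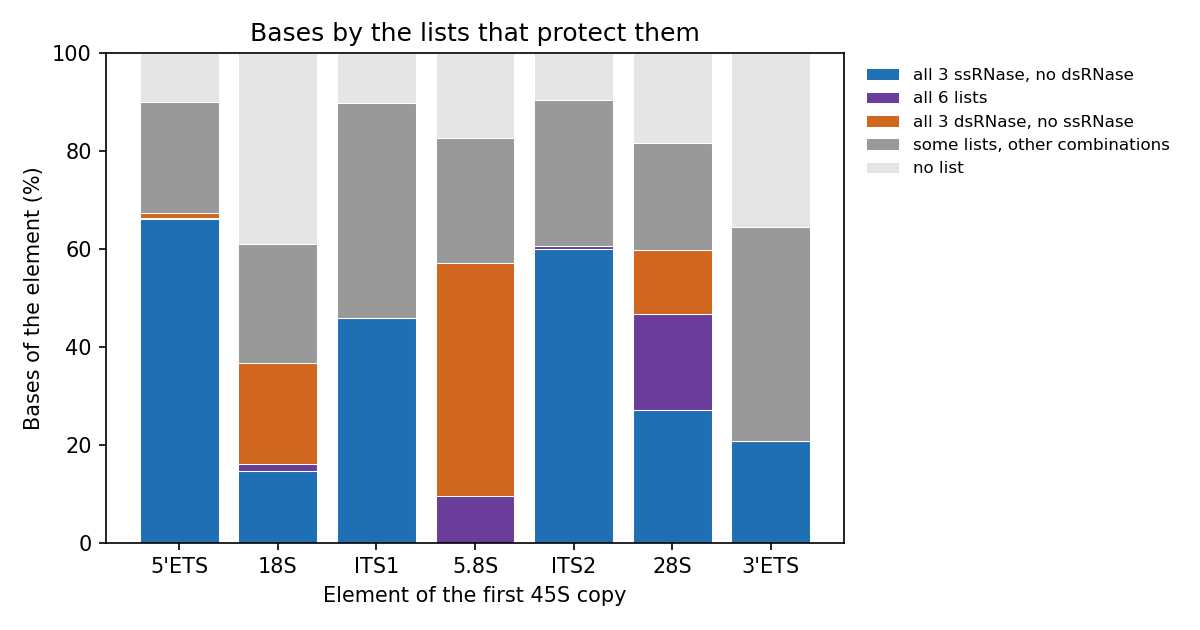
Percent of the bases of each element covered in all 3 ssRNase and no dsRNase list, in all 6 lists, in all 3 dsRNase and no ssRNase list, in other combinations, or in no list. In 28S the bases of all 6 lists make up 19.6%, against 1.39% in 18S and 0.328% in the 5'ETS. In the same order, bases common to the dsRNase lists make up 37.2%, 23.6% and 2.03%, and those common to the ssRNase lists 50.2%, 17.9% and 70.3%.

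The contrast varied along 28S. In 10 equal parts of 507 bases, the mean ssRNase coverage was highest, at 87.8% ± 8.65 (range 81.3% to 97.6%), in the seventh part (positions 3043 to 3549), where no dsRNase list had a covered base. In the fourth part (positions 1522 to 2028) the order was the opposite, with 78.0% ± 1.48 for dsRNase and 41.4% ± 6.52 for ssRNase. In the fifth part the values were 50.8% ± 2.45 and 49.6% ± 3.71 for ssRNase and dsRNase and their ranges overlapped. The ninth part (positions 4057 to 4563) had the lowest ssRNase coverage, 24.6% ± 0.569, beside 18.2% ± 3.55 for dsRNase. These parts were compared by their ranges only, without a test.

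**Figure D4:**
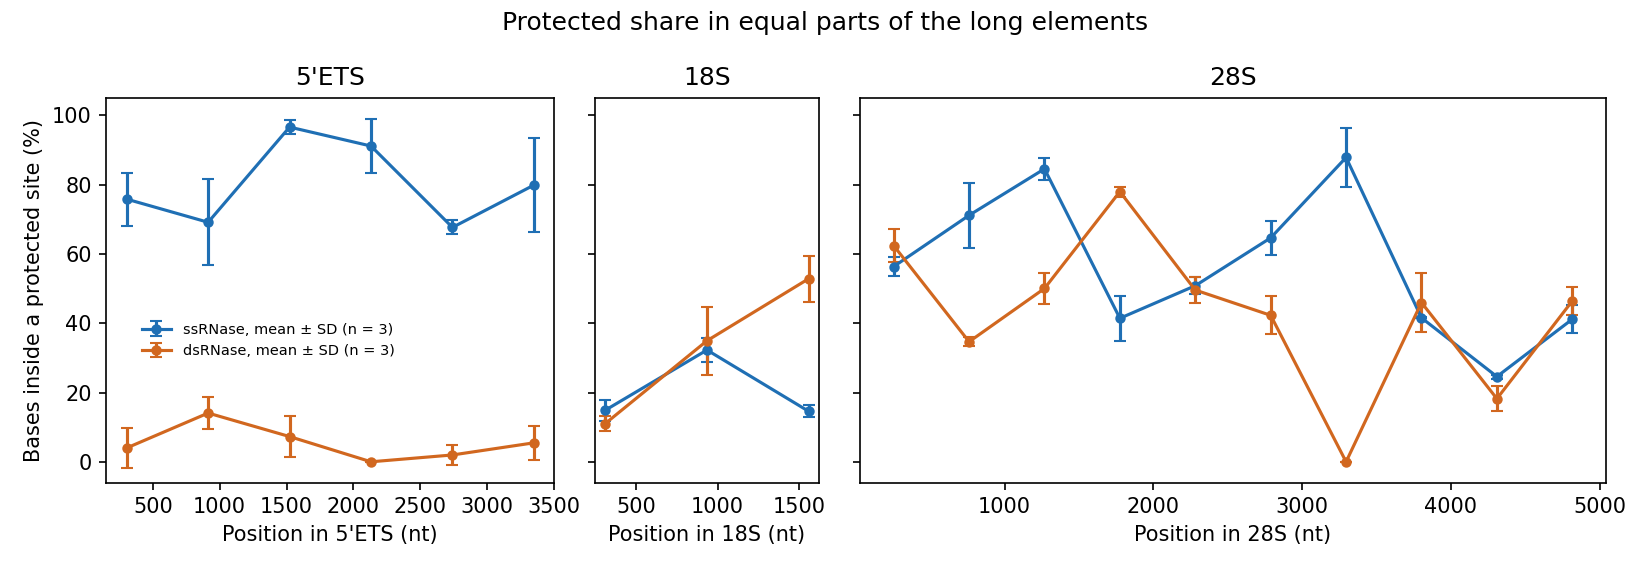
Mean percent of bases inside a site (± SD, n = 3 lists; ssRNase blue, dsRNase orange) in equal parts of the 5'ETS (6 parts), 18S (3) and 28S (10), against the position of the middle of each part in nt. The ssRNase line stays above the dsRNase line along the 5'ETS, and in 28S the lines cross, with 87.8% against 0 in the seventh part and 41.4% against 78.0% in the fourth.

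Within a list, mature rRNA minus spacer coverage was on average -30.1 percentage points with ssRNase and 35.9 with dsRNase, negative in all 3 ssRNase lists and positive in all 3 dsRNase lists. The difference between nucleases was -66.0 points (exact permutation p = 0.1, the smallest possible). Counted by site midpoints per 1000 bases instead, the ssRNase lists had 7.13 in spacers and 7.38 in mature rRNA, so the ssRNase difference of 0.243 sites per 1000 bases was no longer negative. The dsRNase lists had 1.54 and 6.11. Spacer sites of the ssRNase lists were longer, with medians of 66.0 to 80.0 nt against 49.0 to 52.0 nt in mature rRNA. Of all protected 45S bases, spacers made up 59.2% ± 2.25 for ssRNase and 9.64% ± 6.93 for dsRNase (SD, n = 3 each), a difference of 49.5 points. It too had the smallest possible exact permutation p of 0.1. Without dsRNase replicate 3, the list with the most spacer bases of its group, the dsRNase mean of this share was 5.69% and that of spacer coverage 2.90%. With the 21561 best-scoring sites of every list, the mean spacer share was 55.6% for ssRNase and 9.42% for dsRNase, a difference of 46.2 points.

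Sites met the processing junctions differently with the 2 nucleases. The junction from 5'ETS to 18S, where the 5′ end of 18S is formed, lay inside a site of all 3 dsRNase lists (109069 to 109100, 109066 to 109108 and 109059 to 109115). No ssRNase site crossed it, and the nearest ssRNase sites ended 17, 26 and 10 bases before it and began again 183 to 186 bases into 18S. The junction from ITS2 to 28S showed the same arrangement. With starts read as 1-based, it was crossed in all 3 dsRNase lists, by 1 base in replicate 2. Were the deposited starts counted from 0, the replicate 2 site would begin on the first 28S base and not cross. The ssRNase sites stopped on the last ITS2 base and began again 68, 104 and 72 bases into 28S. The 18S 3′ end was crossed in no list. The ITS1 to 5.8S junction was crossed in all 3 ssRNase lists and in dsRNase replicate 2, and the 5.8S to ITS2 junction in all 6 lists. At the 28S 3′ end the 3 ssRNase lists had a site starting on the last 28S base and running into the 3'ETS. Counted from 0, that start would be the first 3'ETS base. No dsRNase list had a site downstream in the rest of the unit. The nearest dsRNase sites ended 95 to 111 bases before that end.

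**Figure D5:**
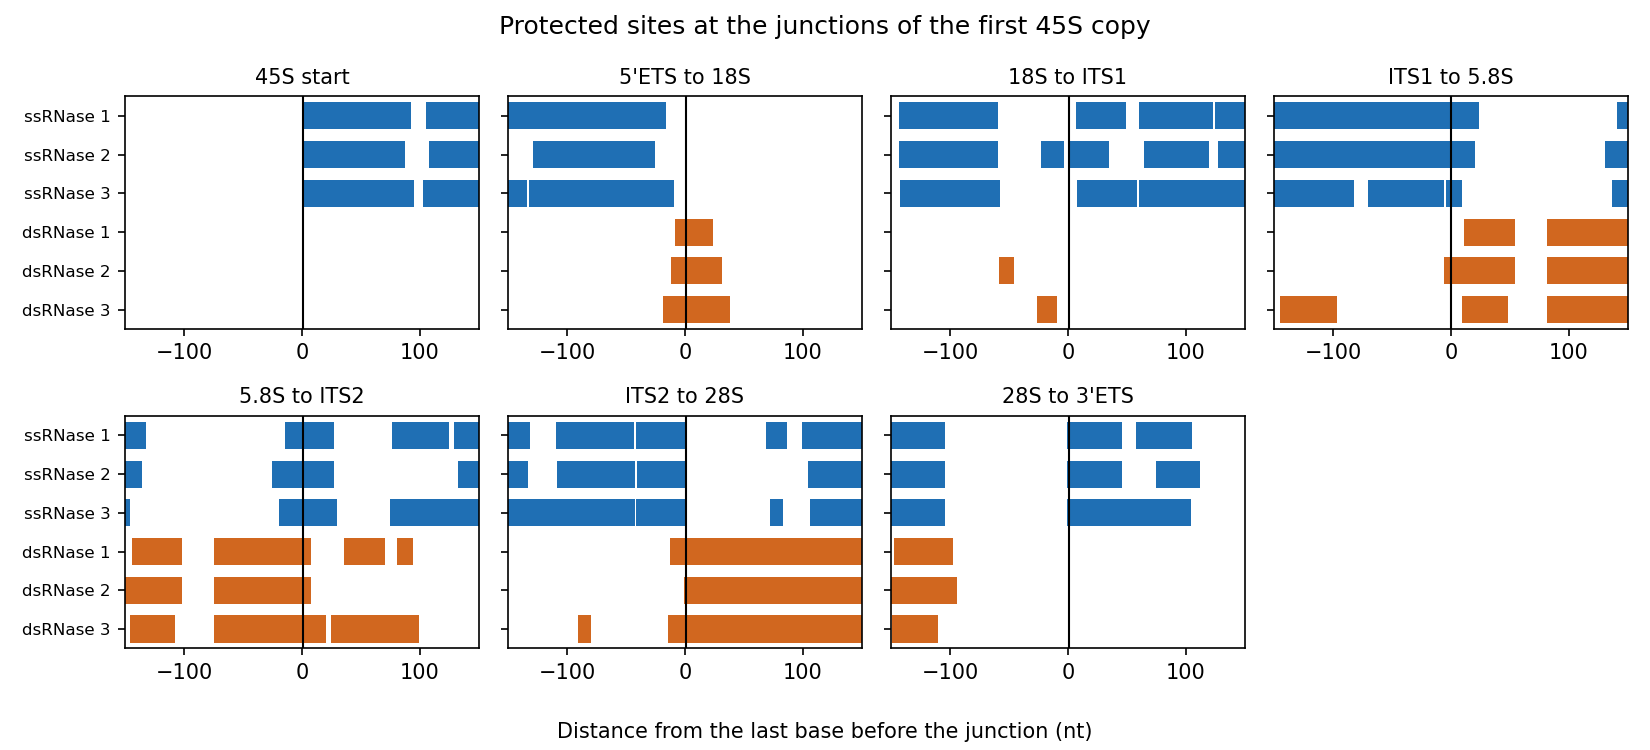
Sites of the 6 lists (rows; ssRNase blue, dsRNase orange) within 150 nt of the 45S start and of the 6 junctions between elements, as distance in nt from the last base before the junction (vertical line). At the 5'ETS to 18S and ITS2 to 28S junctions, sites of all 3 dsRNase lists cross the line and no ssRNase site does.

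Lists of 1 nuclease covered much the same mature bases. Of the mature bases of an ssRNase list, 88.7% to 94.5% were in another ssRNase list, and for dsRNase lists the range was 83.4% to 93.0%. Between nucleases, 36.3% to 44.5% of the bases of an ssRNase list were in a dsRNase list and 40.6% to 50.4% of those of a dsRNase list in an ssRNase list. These ranges lie near the shares of all mature bases, 38.2% to 42.4% in the dsRNase lists and 45.2% to 48.0% in the ssRNase lists. In 18S alone the former range was 9.65% to 20.3%, beside 28.2% to 35.3% of all 18S bases in the dsRNase lists. In spacers 78.0% to 97.7% of the bases of an ssRNase list were in another ssRNase list. The ssRNase lists held 67.4% to 84.4% of all spacer bases. Of the few spacer bases of a dsRNase list, 18.7% to 96.3% were in another dsRNase list. The dsRNase lists held 2.32% to 9.21% of all spacer bases.

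The second copy repeated the first and was not counted as a replicate. Over the span that both copies have on the contig, up to position 161708 in the second, 92 of 92, 89 of 90 and 86 of 86 first-copy sites of the ssRNase lists recurred with the same start and end at the offset of 43972. In the dsRNase lists 44 of 44, 47 of 47 and 56 of 56 did. The score was identical as well in 90, 89, 84, 41, 44 and 54 of these pairs. In ssRNase replicate 2 the exception was an ITS1 stretch, 111074 to 111193, which was 1 site in the first copy and 2 in the second. In dsRNase replicate 2 the second copy had 48 sites against 47, the extra one in 28S at the place that corresponds to 117689 to 117701. The treatment of multi-mapping reads was not given in the sources used here. Whether a site came from one copy or from repeats elsewhere cannot be told apart.

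Contig sites stood near the top of every list by score. They made up 62, 60 and 61 of the 100 best-scoring sites of the ssRNase lists and 31, 35 and 29 of those of the dsRNase lists, counting both copies. With the first copy alone the numbers were 32 in each ssRNase list and 17, 19 and 16 in the dsRNase lists. Within the unit, spacer sites ranked lower than mature sites in their own list. With ssRNase the median spacer site stood at percentile 89.9 to 98.1 of its list by score and the median mature site at percentile 99.88 to 99.96. With dsRNase the ranges were 52.9 to 87.3 and 98.9 to 99.4.

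The first copy held 0.147% ± 0.0949 of all site bases of the ssRNase lists and 0.375% ± 0.0478 of those of the dsRNase lists (SD over 3 lists each, exact permutation p = 0.1), without overlap. With the 21561 best-scoring sites of every list, which changes the length of the lists and the choice of sites by score together, the order turned and the ssRNase share was higher, 0.509% ± 0.0687 against 0.411% ± 0.0178 (exact permutation p = 0.1). Strand-specific windows of 10000 bp across all chromosomes were compared with limma. Values were log2 of the site bases in a window per 1000000 of the list, plus 20, and 33.6% of 31432 windows passed an adjusted p of 0.05. On the contig 7 of 10 tested windows passed, 2 with a higher ssRNase and 5 with a higher dsRNase value. Some of the 7 hold the same sites in the other copy. The 2 were plus-strand windows between the units, 120001 to 130000 and 130001 to 140000, with no dsRNase site. They entered the test, which asked for a site in at least 3 lists, through the ssRNase lists alone and add no support. Their ssRNase means, 20.6 and 13.8 site bases per 1000000, were near the added 20. A higher value is a larger share of a list's own site bases, not a larger number of bases. The ssRNase lists held 2915002 to 10193603 site bases in all and the dsRNase lists 798935 to 979087. The plus-strand window 110001 to 120000, which runs from within 18S past the end of the first unit, had 488, 1584 and 666 site bases per 1000000 in the ssRNase lists and 3534, 2954 and 3590 in the dsRNase lists. All dsRNase values were higher, with a log2 difference (ssRNase minus dsRNase) of -2.03 ± 0.44 (SE) and a limma adjusted p of 0.0195. The preceding window, 100001 to 110000, holds mainly the 5'ETS, and its difference of 0.45 ± 0.48 (SE) did not pass (limma adjusted p = 0.566). None of these contig calls held with the replicate number as a block or without any 1 ssRNase list. With windows of 1000 bp, 19 of 32 contig windows passed (4 higher with ssRNase, 15 with dsRNase), against 26.3% of 49485 windows overall. The 4 held no dsRNase site, so they too entered the test through the ssRNase lists alone and add no support. Of these 4, the windows from 107001 and from 151001 hold corresponding sites of the 2 copies.

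Few sites lay outside the 2 units. Plus-strand sites outside them numbered 17, 7 and 14 in the ssRNase lists and 1, 1 and 2 in the dsRNase lists. Minus-strand sites numbered 3, 2 and 6 and 1, 1 and 2, 15 in all, and 0 of them overlapped a 45S copy. The sites outside fell into 34 places, 21 of them in 1 list only. One plus-strand place upstream of the first copy, 95756 to 95817, had a site in all 6 lists, of 15 to 32 nt with ssRNase and 38 to 53 nt with dsRNase. In the intergenic spacer between the units, a minus-strand place at 139092 to 139149 had a site in 2 ssRNase and all 3 dsRNase lists. The plus-strand places 140495 to 140547 and 119712 to 119762, the latter beginning 932 bases after the end of the unit, and the minus-strand place 136891 to 136947 were in all 3 ssRNase lists and in no dsRNase list. Another 5 places of 47 to 65 nt were in 2 ssRNase lists, 4 on the plus strand (121589 to 121652, 136963 to 137027, 140978 to 141027, 142520 to 142566) and 1 on the minus strand (120925 to 120974). Minus-strand sites covered 140, 100 and 317 bases with ssRNase and 41, 40 and 72 with dsRNase (difference of the means 134.7 bases, exact permutation p = 0.1). Without ssRNase replicate 3 the difference was 69.0 bases, and with the 21561 best-scoring sites of every list it turned to -13.3 bases (exact permutation p = 0.8).

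In the authors' merged list over both nucleases the contig had 186 sites, 80 of them in the first copy, and 23 of these 80 were joined from sites of all 6 lists. The longest merged site, 106239 to 107157 in the 5'ETS, spanned 919 nt and joined 18 replicate sites. It was longer than any replicate site on the contig, the longest of which had 678 nt. The merged ssRNase and dsRNase lists had 191 and 128 contig sites.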

How the data were processed

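The submitters' processing notes name cutadapt 0.9.5, TopHat2 2.0.9 and hg19. The names of the deposited lists give CSAR as the caller, with a false discovery rate of 5%. The treatment of multi-mapping reads and any normalisation were not given in the sources used here. The replicate lists give a score per site deposited by the authors, used only for ranks within a list and to compare matching sites of the 2 copies. The other deposited value, in the 3 lists merged by the authors, names the replicate sites joined and was used to count them.

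Positions were read as 1-based and inclusive. Whether the deposited starts count from 0 was not checked. If they do, every site starts 1 base later and is 1 base shorter than given here. 18S, 5.8S and 28S followed the hg19 contig positions, spacers were the bases between them, and the 45S end came from the length of RNA45SN5 in RefSeq. No genome sequence of hg19 was used. A base counts as protected where at least 1 site of the list covers it on the plus strand. A site belongs to the element of its midpoint. Named stretches followed 1 rule: per element, the longest run of at least 10 nt in all 6 lists, in all lists of 1 nuclease and none of the other, and in none, with each list's longest and best-scoring site and up to 10 places outside the units found in at least 2 lists of a nuclease. Elements, lists and tests were chosen with earlier results of these data known.

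Groups of 3 lists were compared by two-sided exact permutation tests over all splits of the lists, with Benjamini-Hochberg adjustment over 7 elements. The test code was checked against scipy 1.17.1 on random values. The window test was limma 3.58.1 (R 4.3.3) on log2(site bases per 1000000 + 20) where a site lay in at least 3 of 6 lists. On this scale the differences of low windows are understated. Python 3.11.15, numpy 2.4.6, pandas 2.3.3 and matplotlib 3.10.9 served for the rest. The coverage code was tested on simulated intervals, and 0 of 60100 positions differed. The window test on 31432 simulated windows recovered 41 and 45 of 50 at log2 changes of 4 and -4, and 50 and 47 of 50 at 8 and -8, with 12 false calls. These changes were larger than any contig difference in windows of 10000 bp, and recovery at smaller differences was not tested. Replicate numbers were not used as pairs. Alternatives were the better-scoring 50% of sites, equal list lengths, each list left out, the replicate block, the second copy, site midpoints, and other window settings.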

Additional observations from a re-analysis of the deposited data

Results flagged for a closer look

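Mature minus spacer coverage had opposite signs with the 2 nucleases, on average -30.1 percentage points over the 3 ssRNase lists and 35.9 over the 3 dsRNase lists, with every list on its group's side. The difference was compared by the exact permutation test only, which gave its smallest possible p of 0.1 (3 lists each). By site midpoints per 1000 bases the ssRNase mean was 0.243 and the dsRNase mean 4.56, so the signs no longer differed.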

How the results depend on the processing

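Spacer and mature coverage, their difference and the spacer share of protected bases kept their direction under every alternative run. Their exact tests cannot go below 0.05 in any of these settings, so p-values say nothing about stability. With each list left out in turn, the ssRNase minus dsRNase difference ranged from 67.3 to 75.8 points in spacers and from 3.98 to 6.06 in mature rRNA, and the spacer share difference from 47.0 to 53.5. With the replicate block these differences were 71.4, 5.33 and 49.5 points, each with an exact sign-flip p of 0.25, the smallest that 3 pairs allow. The numbers were not taken as pairs, since the correlations of same-numbered lists in their deviations from the group means were not all above 0.1. They were -0.045, -0.0671 and -0.0366 over 4483 windows, where no list correlated best with its own number. Over the 7 elements they were -0.716, 0.481 and 0.540, where replicates 2 and 3 correlated best with their own number and replicate 1 did not. With the 21561 best-scoring sites of every list, the spacer difference was 59.7 points, and 2 results reversed: the first-copy share of site bases went from -0.227 to 0.0979 percentage points and the minus-strand difference from 134.7 to -13.3 bases (exact permutation p = 0.8). Without ssRNase replicate 3 the minus-strand difference was 69.0 bases. The window calls were the least stable: 10563 windows passed in limma, 0 passed with the replicate block (11366 at an unadjusted p below 0.05), and 45 to 10078 passed with 1 list left out (147, 51 and 45 without ssRNase replicate 1, 2 or 3). Of the 7 contig windows called, 0 passed with the block or without any 1 ssRNase list (8 contig windows then tested), and 3, 5 and 4 windows passed without dsRNase replicate 1, 2 or 3. The cause was not tested. Depth is unknown, so no limit of detection can be given for a base without a site.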
